A study of Arabidopsis thaliana with 6 samples.

Results

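The genes described here take up sulfate, reduce it and mark sulfur deficiency, and they were followed in root tips of wild-type Arabidopsis and of plants with an insertion in ORE15, which encodes a transcription factor of the PLATZ family. They were chosen as a list of 10 gene identifiers, of which 9 were among the 18734 genes of the deposited count table. The tenth, GGCT2;1 (AT5G26220), an enzyme that breaks down glutathione, was not analysed here. The wild type was Columbia (Col) and the mutant was ore15-2, whose T-DNA insertion in ORE15 is carried in the Columbia-0 background, with 3 libraries each. Both were grown on sucrose-containing Murashige and Skoog medium in continuous light, and RNA was taken at 5 days after planting from the last 0.5 cm of the primary root. The labels call the cell type root meristem stem cells, although a tip of this length also holds differentiated tissue. They give 2 seedlings per genotype for 3 libraries and name no separate cultures, so p-values measure only how these libraries vary, and that variation may be technical.

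Plant roots take up sulfate through high-affinity transporters of the SULTR1 family. Inside the cell sulfate is activated by ATP sulfurylase to adenosine 5′-phosphosulfate (APS), which APS reductase (APR) reduces to sulfite in plastids, and sulfite is then reduced to sulfide and built into cysteine. APS kinase draws APS into a side branch that feeds glucosinolates, sulfur-rich defence compounds. When sulfate is short, roots are known to raise transcripts of sulfate transporters, APS reductases and a small group of marker genes, among them the SDI and LSU genes, and the transcription factor SLIM1 is needed for much of this response.

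Total counts ranged from 17433440 to 20333352 in Col. The mutant libraries were less even, with 6706712, 6396903 and 16503138 counts in order of replicate. The 2 shallow mutant libraries also had the highest share of mitochondrial counts, 2.91% and 3.20%, against at most 0.328% elsewhere. They stand apart from the rest, so the genes that rose are also given without them. Pairs of libraries were also compared by a chi-square per gene on their counts. By this measure ore15-2 replicate 3 was nearer to the Col libraries (20.1 to 23.0) than to ore15-2 replicates 1 and 2 (29.2 and 49.0). ORE15 (AT1G31040, a pairing from background knowledge) had 13, 12 and 8 counts in Col and 0, 0 and 1 in ore15-2. Of 6 fixed markers of the root stem cell niche all were detected, and their summed level was 101 to 114 CPM in Col and 89.2 to 132 CPM in ore15-2. The sum hides moves in both directions. Mean WOX5 was 2.22 CPM in Col and 1.43 CPM in ore15-2, and mean PLT2 was 9.42 and 11.8 CPM. None of the 6 passed the threshold used below. CPM values are counts scaled to a common library total, with library sizes adjusted by the trimmed mean of M values (TMM). In bulk tissue, more cells of a type and more RNA per cell cannot be told apart.

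The question was which sulfur genes change in root tips when ORE15 is disrupted. Of the 9 measured genes, 7 rose and 0 fell in ore15-2 (edgeR quasi-likelihood test, Benjamini-Hochberg adjusted p under 0.05 over all 18726 genes tested). In the same fit 6.47% of all genes rose and 3.43% fell, 9.90% in either direction. The list was drawn up with earlier results of these data known. Its counts and medians beside those of all genes are therefore a description, without a test over the list. The 7 that rose were the 4 deficiency markers SDI1, SDI2, LSU1 and LSU2 and the 3 APS reductases, while both root uptake transporters did not pass. The median log2 fold change of the 9 genes was 0.74, against -0.00049 over all genes tested, and the 9-gene medians were 0.68, 1.01 and 0.76 in ore15-2 replicates 1, 2 and 3. All 9 passed the filter on low counts. In 7 of the 9 every ore15-2 library lay above every Col library, an arrangement that 18.2% of all genes tested showed in this direction and 34.5% in either direction.

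**Figure D1:**
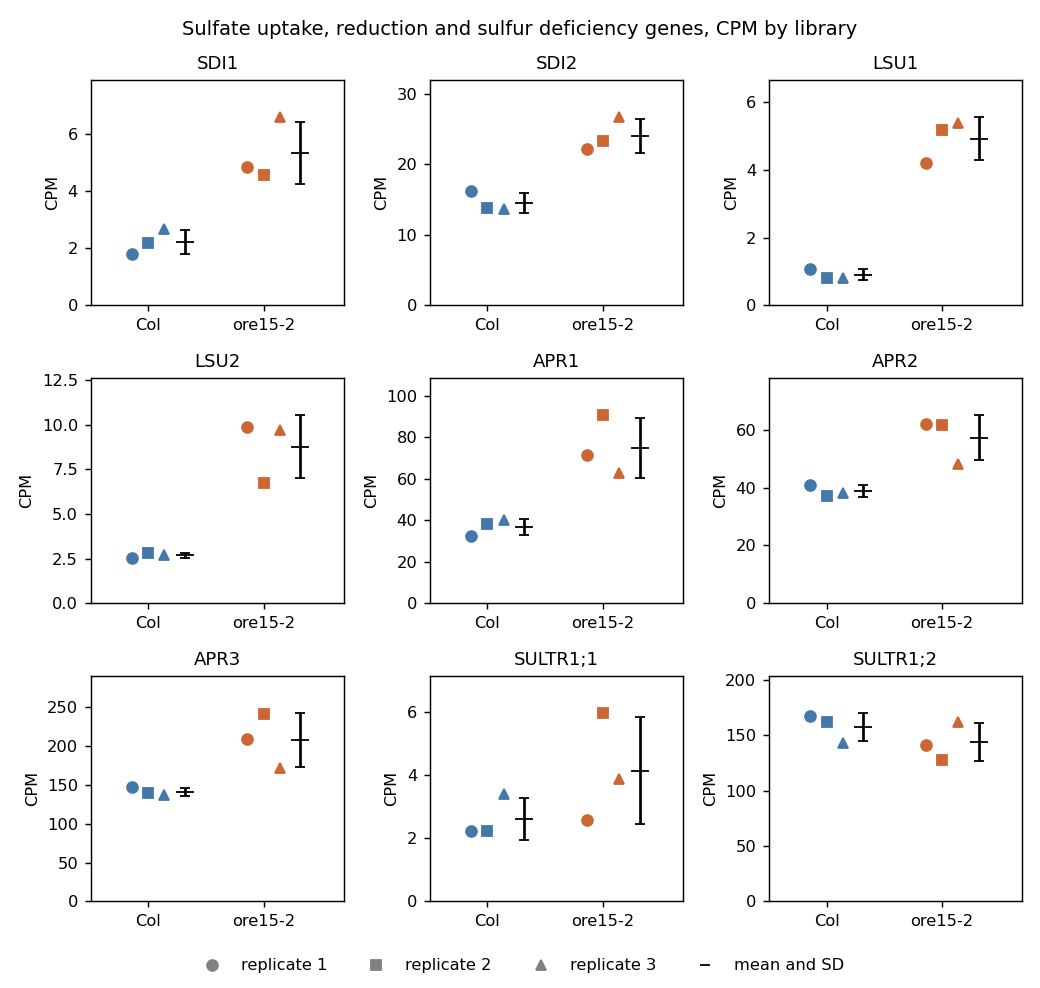
CPM (linear axis from 0) of the 9 measured genes in the 3 Col (blue) and 3 ore15-2 (orange) libraries, with the mean and SD in black beside the points. The 4 SDI and LSU genes and the 3 APR genes show no overlap between genotypes, and SULTR1;1 and SULTR1;2 overlap.

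LSU1 (AT3G49580), which encodes a small coiled-coil protein induced by sulfur deficiency, showed the largest difference of the 9 genes. In TAIR10.1 it spans chromosome 3 from 18374908 to 18375940 on the minus strand, and LSU2 spans chromosome 5 from 8443279 to 8444101 on the minus strand. Its counts were low, with 21, 18 and 17 reads in the Col libraries against 26, 26 and 94 reads in the mutant ones. This corresponded to 1.09, 0.817 and 0.812 CPM in Col and 4.20, 5.17 and 5.38 CPM in ore15-2. The lowest ore15-2 library was well above the highest Col library, and the 3 ore15-2 libraries lay close together. The mean rose from 0.906 ± 0.158 to 4.91 ± 0.627 CPM (SD, n = 3), a log2 fold change of 2.46 (SE 0.22, edgeR adjusted p = 0.000347).

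LSU2 (AT5G24660), a close relative of LSU1, had 2.54, 2.82 and 2.72 CPM in Col and 9.85, 6.76 and 9.72 CPM in ore15-2. Again the genotypes did not overlap, and ore15-2 replicate 2 was the lowest of the mutant libraries. LSU2 rose by 1.73 on the log2 scale (SE 0.19, edgeR adjusted p = 0.000767). LSU1 and LSU2 each have a neighbour of the same family on the same strand with no annotated gene between them, LSU3 (AT3G49570) 1760 bp from LSU1 and LSU4 (AT5G24655) 1914 bp from LSU2. Both neighbours belong to a list of other sulfur deficiency genes and rose as well. LSU3 had 1.50, 1.18 and 0.812 CPM in Col and 4.52, 2.19 and 3.55 CPM in ore15-2 (log2 fold change 1.58, SE 0.30, edgeR adjusted p = 0.0120). LSU4 had 0.778, 0.727 and 0.526 CPM in Col and 1.45, 1.19 and 2.74 CPM in ore15-2 (log2 fold change 1.60, SE 0.35, edgeR adjusted p = 0.0212). LSU4 rests on few reads, 6 to 48 per ore15-2 library, and 3 counts correspond to 0.485 and 0.596 CPM in ore15-2 replicates 1 and 2. The 4 LSU genes are therefore all higher in the insertion line, and no stretch of 50 bases in their exons occurs a second time on the 5 nuclear chromosomes of the reference, TAIR10.1.

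SDI1 (AT5G48850) and SDI2 (AT1G04770, named from background knowledge, since the reference gives it no symbol) are paralogs induced by sulfur deficiency, and both are known to repress glucosinolate synthesis. SDI1 lies on chromosome 5 from 19805437 to 19807853 and SDI2 on chromosome 1 from 1336274 to 1337849, both on the minus strand. SDI1 had 1.81, 2.18 and 2.68 CPM in Col and 4.85, 4.57 and 6.58 CPM in ore15-2. The genotypes did not overlap and ore15-2 replicate 3, the deepest mutant library, was the highest. SDI1 rose from 2.22 ± 0.432 to 5.33 ± 1.09 CPM (SD, n = 3), a log2 fold change of 1.32 (SE 0.23, edgeR adjusted p = 0.00683). SDI2 had 16.2, 13.8 and 13.7 CPM in Col and 22.1, 23.3 and 26.6 CPM in ore15-2, again without overlap. It rose by 0.74 on the log2 scale (SE 0.13, edgeR adjusted p = 0.00839). SDI2 overlaps VAMP726 on the other strand by 431 bp, and VAMP726 was at 4.23 CPM in Col and 3.25 CPM in ore15-2. The SDI1 call was lost without Col replicate 2 (log2 fold change 1.26, edgeR adjusted p = 0.0565). The SDI2 call was lost without Col replicate 2 or 3 (0.66 in both, edgeR adjusted p = 0.0867 and 0.0714).

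The sequences just before the annotated starts of 4 genes that rose by more than 1 on the log2 scale are printed as examples. They are the 300 bases before the start in TAIR10.1, read 5′ to 3′ on the strand of each gene, for LSU1 (chr3:18375941-18376240, minus strand), LSU2 (chr5:8444102-8444401, minus strand), SDI1 (chr5:19807854-19808153, minus strand) and SULTR1;3 (chr1:7817309-7817608, plus strand). SULTR1;3 is a sulfate transporter described further on. No annotated gene lies in any of the 4 windows. Capitals mark GAGAC, the core of a sulfur-responsive element known from the SULTR1;1 promoter, and GAACCT, on either strand (GTCTC and AGGTTC). The LSU2 window holds neither. APR1, LSU3, LSU4 and DES1, a gene described further on, also rose by more than 1 and are not printed. Of their windows, only that of LSU4 holds either motif.
LSU1: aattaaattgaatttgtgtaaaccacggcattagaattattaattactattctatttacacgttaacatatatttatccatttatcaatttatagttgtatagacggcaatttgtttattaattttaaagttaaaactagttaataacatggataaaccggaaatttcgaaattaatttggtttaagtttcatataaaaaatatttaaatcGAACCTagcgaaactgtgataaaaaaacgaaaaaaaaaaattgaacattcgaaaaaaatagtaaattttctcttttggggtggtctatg
LSU2: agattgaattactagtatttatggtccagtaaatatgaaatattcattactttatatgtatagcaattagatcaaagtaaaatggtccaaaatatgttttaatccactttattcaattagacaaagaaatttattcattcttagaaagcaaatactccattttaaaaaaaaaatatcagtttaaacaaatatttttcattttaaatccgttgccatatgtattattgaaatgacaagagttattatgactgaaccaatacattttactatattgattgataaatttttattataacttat
SDI1: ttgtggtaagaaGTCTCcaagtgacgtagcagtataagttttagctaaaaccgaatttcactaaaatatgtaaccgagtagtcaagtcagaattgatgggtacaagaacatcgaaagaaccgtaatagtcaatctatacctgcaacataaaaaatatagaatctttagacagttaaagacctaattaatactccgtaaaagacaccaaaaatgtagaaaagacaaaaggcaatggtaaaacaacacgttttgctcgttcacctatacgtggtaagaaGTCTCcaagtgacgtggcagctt
SULTR1;3: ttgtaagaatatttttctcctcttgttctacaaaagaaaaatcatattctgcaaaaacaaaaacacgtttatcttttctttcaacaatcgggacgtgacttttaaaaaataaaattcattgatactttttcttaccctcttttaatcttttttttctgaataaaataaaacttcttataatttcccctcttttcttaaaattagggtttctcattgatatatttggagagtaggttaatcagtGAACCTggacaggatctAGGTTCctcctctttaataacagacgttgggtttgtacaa

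GAGAC was in the 300 bases before the start of 29.5% of 18403 protein-coding genes in the count table, and in 43.6% when 100 bases after the start were added. Of the 9 measured genes and the 5 other sulfur genes past the threshold, it was in the shorter window of 2, SDI1 and LSU4, and in the longer window of 4, with SDI2 and LSU2 added. The SDI1 window holds it at both ends, 288 and 23 bases before the start, inside 30-base stretches that are identical at 27 of 30 positions and 265 bases apart. GAACCT was picked after the sequences of these genes had been read, so its count is a description without a test. It was in the shorter window of 6.87% of the 18403 genes and of 3 of the 14, SDI2, LSU1 and SULTR1;3. From 300 bases before to 100 bases after the start, 9.31% of the 18403 genes hold it, and 6 of the 14 sulfur genes do, namely SDI2, LSU1, APR1, APR3, SULTR1;3 and LSU3. It lies 53 bases before the start in SDI2, 89 before in LSU1, 57 and 40 before in SULTR1;3, and 46, 47 and 42 bases into APR1, APR3 and LSU3. The 30 bases around it are given for 4 of these genes, with the motif in capitals, from SDI2 (chr1:1337885-1337914, minus strand), APR1 (chr4:2324911-2324940, plus strand), APR3 (chr4:11659104-11659133, minus strand) and LSU3 (chr3:18373089-18373118, minus strand).
SDI2: gagaatctgtctAGGTTCcttcttcttctt
APR1: accaatgtgtccAGGTTCaatgaatctgga
APR3: aaaaagacgtctAGGTTCaatgaacctaaa
LSU3: acgagatacattGAACCTagacactttgca

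APR3 holds a second copy 56 bases from its start, in the other orientation. A match is only a match of letters, and from 300 bases before to 100 after the start neither motif was in APR2, SULTR1;1, SULTR1;2, DES1 or SULTR2;2.

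The APS reductases, which set much of the flux through sulfate reduction, all rose. APR1 lies on chromosome 4 from 2324878 to 2327064 on the plus strand, APR2 on chromosome 1 from 22975530 to 22977885 and APR3 on chromosome 4 from 11657008 to 11659167, the last 2 on the minus strand. APR1 (AT4G04610) had 32.7, 38.4 and 40.1 CPM in Col and 71.4, 90.7 and 62.8 CPM in ore15-2. Every mutant library was above every Col library, with ore15-2 replicate 2 the highest. APR1 rose from 37.0 ± 3.88 to 74.9 ± 14.3 CPM (SD, n = 3), a log2 fold change of 1.01 (SE 0.15, edgeR adjusted p = 0.00294).

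APR2 (AT1G62180), the isoform known to account for most APS reductase activity, had 41.0, 37.1 and 38.0 CPM in Col and 61.9, 61.4 and 48.3 CPM in ore15-2. The genotypes did not overlap, and ore15-2 replicate 3 was nearest to Col. Its log2 fold change was 0.55 (SE 0.12, edgeR adjusted p = 0.0192). APR3 (AT4G21990) had 147, 140 and 137 CPM in Col and 209, 241 and 172 CPM in ore15-2. It too was raised least in ore15-2 replicate 3, and its log2 fold change was 0.55 (SE 0.14, edgeR adjusted p = 0.0387).

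In some fits with 1 library left out, APR2 and APR3 missed the threshold, although their log2 fold changes there stayed near 0.55. Without Col replicate 1, 2 or 3 the APR2 values were 0.58, 0.50 and 0.51, and without ore15-2 replicate 1 it was 0.49, with edgeR adjusted p = 0.0703, 0.134, 0.105 and 0.0926. For APR3 the same fits gave 0.56, 0.51, 0.50 and 0.54, with edgeR adjusted p = 0.142, 0.196, 0.179 and 0.135. These fits called fewer genes in all, 746, 634, 821 and 914, against 1854 with all 6 libraries. Both genes were still called when ore15-2 replicate 2 or 3 was dropped, where 2108 and 6612 genes in all were called. Why the calls were missed was not tested. Without both shallow mutant libraries, APR1, APR2 and APR3 were at 0.77, 0.33 and 0.29, where the lone mutant library is assumed to vary like Col. APR2 and APR3 were thus smaller by more than 1.5 times in that fit. APR3 overlaps APG8A on the other strand by 27 bp, and APG8A itself was at 0.45 on the log2 scale (edgeR adjusted p = 0.0629). APR2 overlaps 2 genes by 782 and 225 bp, neither of them analysed here.

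Neither of the transporters that bring sulfate into the root passed the test. SULTR1;2 lies on chromosome 1 from 29327515 to 29333220 and SULTR1;1 on chromosome 4 from 5500313 to 5506313, both on the plus strand. SULTR1;2 (AT1G78000), the main high-affinity uptake transporter of roots, had 167, 162 and 143 CPM in Col and 142, 128 and 162 CPM in ore15-2. The genotypes overlapped, and the mean was 157 ± 12.6 in Col and 144 ± 17.1 CPM in ore15-2 (SD, n = 3). The log2 fold change was -0.13 with a 95% interval from -0.41 to 0.15 (edgeR adjusted p = 0.536), and with ore15-2 replicates 1 and 2 left out it was 0.053. SULTR1;1 (AT4G08620), known to be strongly induced by sulfur deficiency, had few reads, with 43, 49 and 71 counts in Col and 16, 30 and 68 in ore15-2. This was 2.23, 2.23 and 3.39 CPM in Col and 2.58, 5.96 and 3.89 CPM in ore15-2, so ore15-2 replicate 1 fell inside the Col range. Its log2 fold change was 0.62 with a 95% interval from -0.047 to 1.29 (edgeR adjusted p = 0.213). Without ore15-2 replicate 2, the highest library, it was 0.39, and in limma on RPKM it was 0.25 to 0.37.

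Levels were compared between genes only per length, as RPKM (read counts scaled by gene length and by the library's reads). In Col the order of mean RPKM was APR3 at 113, SULTR1;2 at 88.2, APR2 at 31.2, APR1 at 29.1, SDI2 at 17.5, LSU2 at 10.4, LSU1 at 3.50, SDI1 at 2.65 and SULTR1;1 at 1.47. The ranges of APR2 and APR1 overlapped, as did those of LSU1 and SDI1, and the other neighbours in this order were apart in all 3 libraries. In ore15-2 APR1, at 49.9 ± 2.64 RPKM (SD, n = 3), was above APR2, at 39.2 ± 3.53, with no overlap between their libraries. LSU2 rose to 29.6 ± 9.04 RPKM and was next to SDI2, at 25.1 ± 5.45, with overlapping ranges. The top and the bottom of the order, APR3 at 140 RPKM and SULTR1;1 at 1.96 RPKM, were the same genes in both genotypes. The 7 genes that rose in CPM showed no overlap between genotypes in RPKM either. RPKM restates the same counts, so this is not separate support. The share of all genes without overlap in RPKM was not computed.

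**Figure D2:**
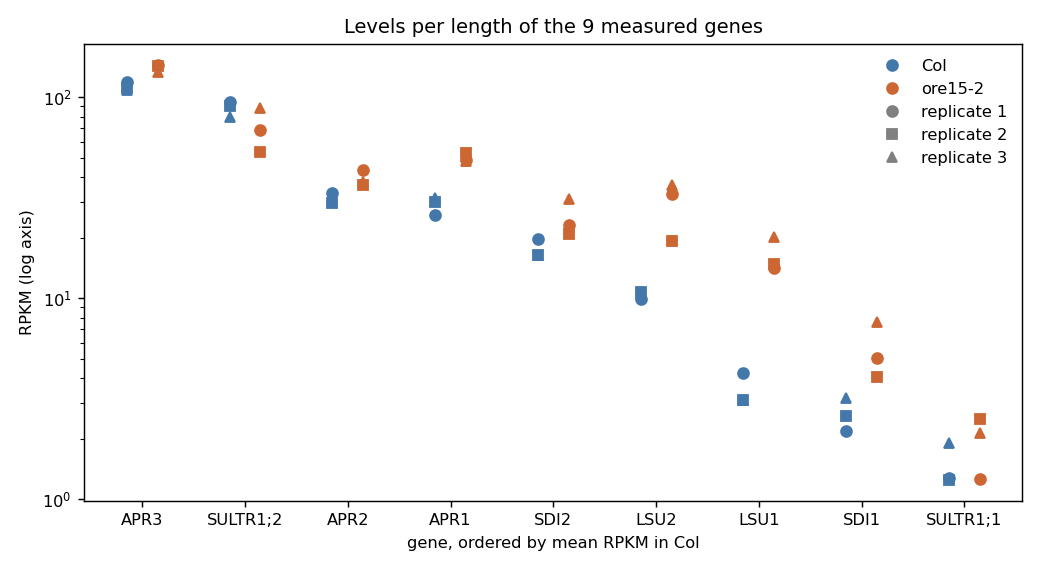
RPKM (log axis) of the 9 measured genes in each Col (blue) and ore15-2 (orange) library, with genes ordered by their mean in Col. Levels run from 113 RPKM for APR3 to 1.47 RPKM for SULTR1;1 in Col, and the gap between genotypes is widest for LSU1.

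The rest of sulfur metabolism was followed with 7 lists of 60 other genes, of which 55 were measured and tested. By edgeR 4 rose, 1 fell and 50 did not pass, which is near the background of 6.47% higher and 3.43% lower over all genes, while DESeq2 called 12 of the 55 and 13.5% of all genes. The unadjusted edgeR p was under 0.05 for 19 of the 55 and for 26.9% of all genes. The shares of all genes apply to each list that follows. Their median log2 fold change was 0.019. The 4 that rose were LSU3, LSU4, the transporter SULTR1;3 and the cysteine-degrading enzyme DES1, and the 1 that fell was the transporter SULTR2;2.

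**Figure D3:**
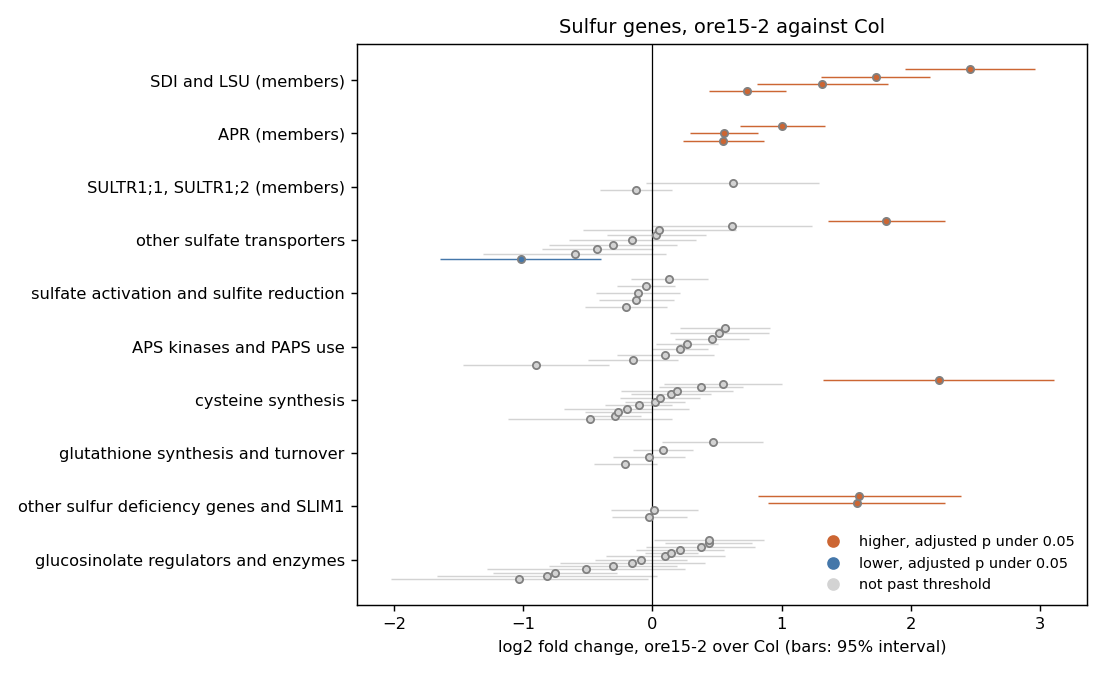
Log2 fold change of ore15-2 over Col for the 9 measured genes (top 3 rows) and 55 other sulfur genes, by list, with bars for the 95% interval. Orange points rose and blue points fell at an edgeR adjusted p under 0.05, and 2 of the 9 measured genes and 50 of the 55 others are grey.

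Of 9 measured sulfate transporters besides SULTR1;1 and SULTR1;2, 1 rose and 1 fell. SULTR1;3 (AT1G22150), a high-affinity transporter known from phloem, had 2.28, 2.68 and 3.20 CPM in Col and 7.75, 9.34 and 11.0 CPM in ore15-2, without overlap. It rose from 2.72 ± 0.461 to 9.38 ± 1.64 CPM (SD, n = 3), a log2 fold change of 1.81 (SE 0.20, edgeR adjusted p = 0.000851). SULTR2;2 (AT1G77990), a low-affinity transporter of vascular tissue, had 8.04, 8.31 and 7.69 CPM in Col and 2.91, 1.99 and 5.55 CPM in ore15-2. It fell by 1.02 on the log2 scale (SE 0.28, edgeR adjusted p = 0.0494) and lies 4162 bp from SULTR1;2, on the other strand. The SULTR2;2 call lay at the threshold. It was lost without any 1 of Col replicates 1, 2 and 3 and ore15-2 replicate 1 (-1.06, -1.05, -1.10 and -0.91, edgeR adjusted p = 0.151, 0.164, 0.116 and 0.18), and without both shallow mutant libraries (-0.52, edgeR adjusted p = 0.0645). Without ore15-2 replicate 3 it was -1.71 (edgeR adjusted p = 0.000415). SULTR2;2 overlaps another annotated gene by 942 bp, which was not analysed here. Beside these vascular transporters, phloem markers were lower in the insertion line, with 3 of 4 markers past the threshold and a summed level of 83.9 to 103 CPM in Col and 36.2 to 55.8 CPM in ore15-2. The part of cell composition in these results was not tested. SULTR4;1 and SULTR4;2, which release sulfate from the vacuole and are known to respond to deficiency, were at 0.030 and 0.053 on the log2 scale. Both were among the 14 other sulfur genes called without the shallow mutant libraries, where ore15-2 replicate 3 lay 0.31 and 0.53 above the Col mean on the log2 scale.

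Enzymes next to APS reductase in the pathway did not pass. Of the 4 ATP sulfurylases and sulfite reductase none passed with all 6 libraries: edgeR and DESeq2 each called 0, and the unadjusted p was under 0.05 for 0. The ATP sulfurylase APS4 had 409 ± 25.7 CPM in Col and 354 ± 25.9 CPM in ore15-2, and APS1 had 244 ± 26.0 and 224 ± 6.77 CPM (SD, n = 3). APS4 was called in the edgeR fit without both shallow mutant libraries, where ore15-2 replicate 3 stood at -0.31 from the Col mean on the log2 scale. Sulfite reductase (SIR) had a log2 fold change of 0.13, with a 95% interval from -0.17 to 0.43.

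In the APS kinase branch 0 of 8 genes passed by edgeR. DESeq2 called 4 of the 8, against 13.5% of all genes, and 5 had an unadjusted p below 0.05, against 26.9% of all genes. The APS kinases APK2 and APK4 had log2 fold changes of 0.46 and -0.90 (edgeR adjusted p = 0.0535 and 0.053), and the sulfotransferase SOT17, which completes glucosinolates, was at 0.56 (edgeR adjusted p = 0.0506). Of 13 measured glucosinolate regulators and enzymes 0 passed by edgeR. DESeq2 called 2, and 4 had an unadjusted p below 0.05. The 2 were MYB51, lower at -0.75 on the log2 scale, and CYP79B2, higher at 0.44 (edgeR adjusted p = 0.0567 and 0.101). MYB28, the regulator of aliphatic glucosinolates that SDI1 binds, had 12.9 ± 2.79 CPM in Col and 10.2 ± 2.43 CPM in ore15-2 (SD, n = 3).

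In the cysteine synthesis list 11 of 12 measured genes did not pass by edgeR, and the 1 that rose encodes an enzyme that degrades cysteine. This was DES1 (AT5G28030), a cytosolic L-cysteine desulfhydrase that releases sulfide from cysteine, with 10, 7 and 14 counts in Col and 17, 18 and 28 in ore15-2. It had 0.519, 0.318 and 0.669 CPM in Col and 2.75, 3.58 and 1.60 CPM in ore15-2, without overlap, and ore15-2 replicate 3 was the lowest mutant library. Its log2 fold change was 2.22 (SE 0.40, edgeR adjusted p = 0.00858), and CYSD2, 909 bp away on the same strand, was at 0.019. DESeq2 called 2 of the 12, DES1 and OASA1, and 5 had an unadjusted p below 0.05. OASA1, the main cytosolic cysteine synthase, had 519 ± 13.4 CPM in Col and 761 ± 180 CPM in ore15-2 (SD, n = 3; edgeR adjusted p = 0.123), and was also called by edgeR without ore15-2 replicate 3 and without both shallow mutant libraries. Of the 4 genes of glutathione synthesis and turnover 0 passed by edgeR or DESeq2, with 1 at an unadjusted p under 0.05.

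**Figure D4:**
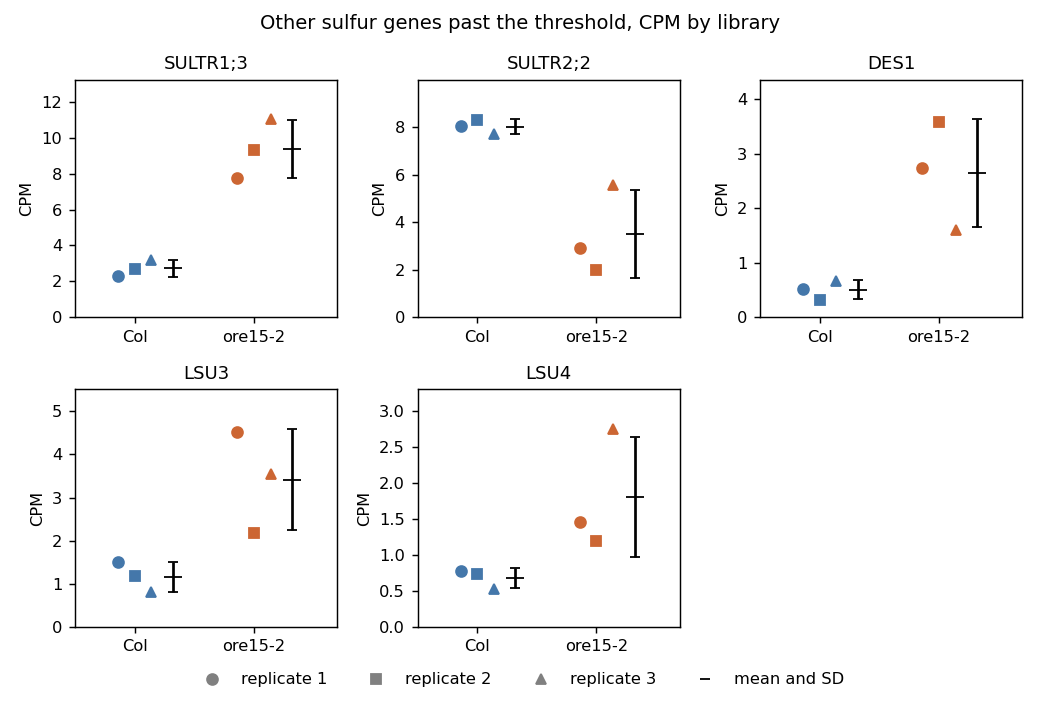
CPM (linear axis from 0) of the 5 other sulfur genes past the threshold in the 3 Col (blue) and 3 ore15-2 (orange) libraries, with the mean and SD in black. SULTR1;3, DES1, LSU3 and LSU4 are higher and SULTR2;2 is lower in every ore15-2 library.

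Among the other deficiency genes, SLIM1 (AT1G73730, listed as EIL3 in the reference), the transcription factor of the sulfur deficiency response, had 20.9, 20.3 and 19.0 CPM in Col and 21.0, 16.5 and 21.1 CPM in ore15-2, with a log2 fold change of -0.026 and a 95% interval from -0.32 to 0.26. SHM7, a serine hydroxymethyltransferase known to respond to the cysteine precursor O-acetylserine together with SDI1 and LSU1, had 34.2 ± 0.913 CPM in Col and 34.1 ± 7.75 CPM in ore15-2 (SD, n = 3). The LSU genes of this list rose and these 2 genes did not pass. The LSU3 call was lost without Col replicate 2 or 3 or ore15-2 replicate 1 (1.56, 1.35 and 1.41, edgeR adjusted p = 0.0747, 0.0598 and 0.0601), and the LSU4 call without Col replicate 1, 2 or 3 or ore15-2 replicate 3 (1.67, 1.61, 1.41 and 0.95, edgeR adjusted p = 0.0756, 0.0983, 0.0968 and 0.087).

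Markers of other cell types and tissues also differed. All 5 measured root hair markers rose, and their summed level was 240 to 287 CPM in Col and 458, 783 and 454 CPM in ore15-2 replicates 1, 2 and 3. Of 5 leaf photosynthesis markers 3 rose, RBCS2B, RBCS3B and LHCB1.1, with log2 fold changes of 3.09, 2.86 and 3.11, and PSAD1 fell by 0.94. The list's median was 2.86, while its summed level, most of it RBCS1A, was 129 to 158 CPM in Col and 96.9 to 231 CPM in ore15-2. In the root cap list 1 of 4 markers rose, FEZ (1.13), and in the endodermis list 1 of 6, CASP4 (0.57). The part of these cell types and tissues in the other results was not tested. None of the 9 genes lies near ORE15 on chromosome 1, the nearest of the 3 on that chromosome being SDI2 at 9731661 bp.

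LSU1, LSU2 and APR1 were called in every alternative in which they were tested, and so were SULTR1;3 and DES1. For LSU2 and SULTR1;3 this leaves aside the filter of 5 CPM in 3 libraries, which they passed through ore15-2 alone. DES1 and LSU4 reached the main filter on low counts only through ore15-2. With no filter DES1 and LSU4 were at 2.22 and 1.60 (edgeR adjusted p = 0.00862 and 0.0212). Over 17 alternatives the log2 fold change ranged from 1.94 to 2.58 for LSU1, from 1.38 to 1.86 for LSU2, from 1.12 to 2.02 for SULTR1;3 and from 1.14 to 2.60 for DES1. For APR1 it ranged from 0.76 to 1.09 over 18 alternatives. Without both shallow mutant libraries LSU1, LSU2, SDI1 and SDI2 were at 2.58, 1.86, 1.57 and 0.89 on the log2 scale, each larger than with all 6 libraries. In the same fit LSU3, LSU4, SULTR1;3 and DES1 were at 1.62, 2.02, 2.02 and 1.68. That fit has a lone ore15-2 library, assumed to vary like Col, so its calls are no support.

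**Figure D5:**
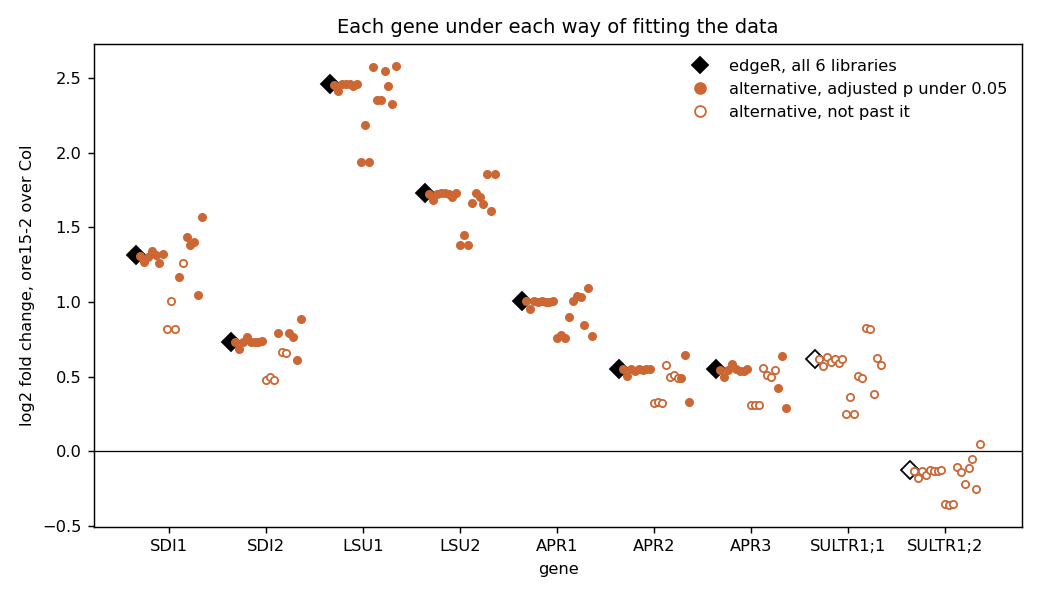
Log2 fold change of the 9 measured genes with all 6 libraries in edgeR (black diamonds) and under each alternative (orange circles), filled where the adjusted p is under 0.05. LSU1, LSU2 and APR1 are filled throughout, SDI1, SDI2, APR2 and APR3 in part, and SULTR1;1 and SULTR1;2 never.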

How the data were processed

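Root tips of Col and ore15-2 were compared with 3 libraries each. The authors deposited raw read counts per gene and RPKM values. Per the submitters' processing notes, FastQC, cutadapt, TopHat2 and HTSeq were used with the TAIR10 genome. Per the labels' protocols, the library kit was stranded (TruSeq) and RNA had an integrity number of 6.7 or higher. Whether counting used strand is not given in the sources used here, and reads of genes that overlap on opposite strands may therefore be mixed. The annotation release is not stated either. The deposited RPKM values and counts implied 1 gene length in the 6 libraries in 18320 of 18320 shared genes with counts in every library (relative tolerance 0.0001), so RPKM restates the counts. The deposited name column gives APR2 and APR3 as the numbers 43192 and 43193, so genes were matched by identifier.

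The test on counts used R 4.3.3 and edgeR 4.0.16 (quasi-likelihood, TMM scaling, filterByExpr, genotype only), with p adjusted over 18726 genes at a threshold of 0.05. The SE is the log2 fold change divided by the square root of F, and 95% intervals use the fitted degrees of freedom. For a single library, the change is its log2 CPM (prior count 2) minus the mean of Col. RPKM alternatives used limma 3.58.1 on log2(RPKM + 1) or log2(RPKM + 0.1), which understates changes of low genes. DESeq2 1.42.0 was another alternative. On simulated counts for ore15-2 against Col (18727 genes), edgeR recovered 94 of 100 genes changed 2-fold and 100 of 100 changed 4-fold, with 14 false calls. Each gene was drawn independently. The false calls therefore do not cover deviations that many genes share within a library. The changed genes were drawn only from those with a mean of at least 5 CPM. The recovery therefore does not cover lower genes, SDI1, LSU1, LSU3, LSU4, DES1 and SULTR1;1 among them.

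Positions and sequences are of TAIR10.1, read from its own annotation, and the deposited tables hold no coordinates. The genes and lists were chosen with earlier results of these data known. All 9 measured genes are named, and of each other sulfur list the members past the threshold, up to 6. Genes that missed the threshold, such as APK2, were named outside that rule after their values were seen. Genes in the lists and not analysed here are GGCT2;1, SULTR3;1, SERAT3;2, BGLU28, MYB29 and CYP79F1. Other marker lists, in summed CPM in Col and ore15-2, gave 382 to 487 and 466 to 674 for endodermis, 199 to 209 and 163 to 194 for xylem and 27.4 to 34.0 and 36.6 to 48.1 for root cap. No listed marker was at 0 in every library. Intervals cover the spread between libraries, and a floor of 3 counts covers counting error only.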

Additional observations from a re-analysis of the deposited data

How the results depend on the processing

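Scaling by RLE or upper quartile, limma-voom, no filter, DESeq2, organelle genes left out and the replicate block each called the same 7 of the 9 genes as the edgeR fit. Over all genes these fits called 1828, 1806, 1770, 1857, 2520, 1868 and 1641, in that order. Over all 264 recomputed gene values and medians 1 changed sign, SULTR1;2 with ore15-2 replicates 1 and 2 left out (0.053), and 45 calls were lost. Leaving out 1 library at a time gave 3 to 7 of the 9 genes, 2 to 20 other sulfur genes and 634 to 6612 genes in all. Of the 9, LSU1, LSU2 and APR1 alone were called without Col replicate 2. With ore15-2 replicates 1 and 2 both left out, 7 of the 9, 14 other sulfur genes and 3109 genes in all were called. Of the other sulfur genes, DESeq2 called 12 and the filter of 5 CPM in 3 libraries, which tested 44 of the 55 and 6 of the 9, called 1 and 5. Over all genes, the fit with that filter called 1551 of 15625 tested. LSU2 and SULTR1;3 passed that filter through ore15-2 alone, so their calls there support nothing. In limma on log2(RPKM + 1), log2(RPKM + 0.1) and log2(RPKM + 1) without a filter, LSU1, LSU2 and APR1 were the 3 called of the 9, with 3, 2 and 3 other sulfur genes and 973, 790 and 1008 genes in all. On that scale 42.1%, 44.7% and 42.2% of the calls were higher, against 65.3% by edgeR on counts, and the median of all genes lay 0.21 to 0.23 lower on the log2 scale, so the median of the 9 genes, 0.48 to 0.50, is relative to that shift. The cause of the lost calls was not tested. With a replicate block 1641 genes were called, 7 of the 9 and 6 other sulfur genes. Deviations of same-numbered libraries from their group means had r = 0.06, 0.08 and -0.20 over genes, and those of other pairs -0.28 to 0.24. With 3 libraries per genotype these values can neither show nor exclude a batch shared by number. The labels state no batch, and the numbers were not taken as pairs. Depth limits SDI1, LSU1, LSU3, LSU4, DES1, SULTR1;1 and SULTR2;2, which had under 30 reads in at least 1 mutant library.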
